A study of Homo sapiens with 8 samples.

Results

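The Hippo pathway transcripts YAP1, WWTR1, TEAD1, LATS1, LATS2, AMOTL1 and AMOTL2 were examined in human hepatic stellate cells, which make the scar matrix of the liver once activated. They were chosen by gene name, and each of the 7 has 1 row among the 12109 transcripts of the authors' deposited table of translation efficiency. Libraries were of 2 kinds, RNA-seq and ribosome profiling, which sequences the RNA fragments that ribosomes shield from nuclease. The LARP6 knockdown cells received dsiLARP6, a silencing RNA against the RNA-binding protein LARP6 (genotype label LARP6 kd), and the control cells received dsi-control (genotype label WT). Both were grown in DMEM with serum, and cycloheximide was applied before lysis for ribosome profiling. Each condition has 2 libraries of each kind, 8 in all. The labels call the cells a cell line without naming a clone or donor, and they do not say whether replicates were separate cultures.

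The Hippo pathway is a kinase cascade that reads cell density, adhesion and the stiffness of the surroundings. Its last kinases, LATS1 and LATS2, phosphorylate the coactivators YAP (gene YAP1) and TAZ (gene WWTR1), which are then held in the cytoplasm or degraded. Unphosphorylated YAP and TAZ enter the nucleus and bind TEAD factors to switch on genes of growth and matrix, and angiomotin-like proteins bind YAP and TAZ and keep them out of the nucleus. In stellate cells, YAP and TAZ are known as mechanosensing regulators of activation.

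After LARP6 knockdown, no significant change in translation efficiency was found for any of the 7 transcripts. Translation efficiency is the ratio of ribosome footprints to RNA, so it does not say how much RNA or protein was present. At an adjusted p of 0.05, 0 of the 7 were called in the authors' deposited table, beside 2.20% of all transcripts, and 1 of the 7, LATS2, had an unadjusted p under 0.05, beside 10.3% of all transcripts. Of the 7 log2 changes in the authors' deposited table, 4 lay above 0 and 3 below, with a median of 0.02 beside 0.02 over all transcripts. The table carries no value for single libraries, so neither a replicate spread nor a standard error nor a depth can be given, and the authors' p-values may measure technical spread alone.

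The annotated start codon differed between the members, and so the stretch around it is shown for each of the 7 and for the other 3 TEAD genes. Each stretch runs 5′ to 3′ from 6 bases before the start codon and comes from the GENCODE release 29 transcript that the table's row names; capitals mark the start codon.
YAP1: gaagccATGgatcccgggcag
WWTR1: cagaagATGaatccggcctcg
TEAD1: gccaaaATTgagcccagcagc
LATS1: gttttcATGaagaggagtgaa
LATS2: ctaacaATGaggccaaagact
AMOTL1: cgcctcATGtggagggcaaag
AMOTL2: agaagcATGaggacactggaa
TEAD2: gcccagATGggggaaccccgg
TEAD3: agcacaATAgcgtccaacagc
TEAD4: ggagccTTGgagggcacggcc

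Of the 7 members, 6 start with ATG and TEAD1 starts with ATT. Among 10486 protein-coding transcripts of the table with an annotated start, 27 (0.257%) start with another codon than ATG. A purine 3 bases before the start codon, the position that matters most in the Kozak context, is found in 5 of the 7 and in 85.4% of the protein-coding transcripts. The exceptions are LATS1, with T there, and AMOTL1, with C.

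The mRNAs also differ in what lies ahead of the start codon. The 5′ leader, the part before the coding sequence, is longer than the protein-coding median of 187 bases in 6 of the 7, the exception being AMOTL1 with 141 bases. LATS1 has the longest, at 548 bases, followed by TEAD1 at 451, LATS2 at 406, YAP1 at 388, WWTR1 at 340 and AMOTL2 at 314 bases. An ATG in the leader can capture scanning ribosomes before they reach the coding sequence. LATS2 has 5 such upstream ATGs, of which 4 meet an in-frame stop codon within the leader, and 6.83% of protein-coding transcripts have at least 5. LATS1 has 3, WWTR1 and AMOTL1 have 2 each, YAP1 and TEAD1 have 1 each and AMOTL2 has 0. The leader of LATS2 also has a low GC content of 51.2%, below which 8.20% of protein-coding transcripts lie.

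**Figure D1:**
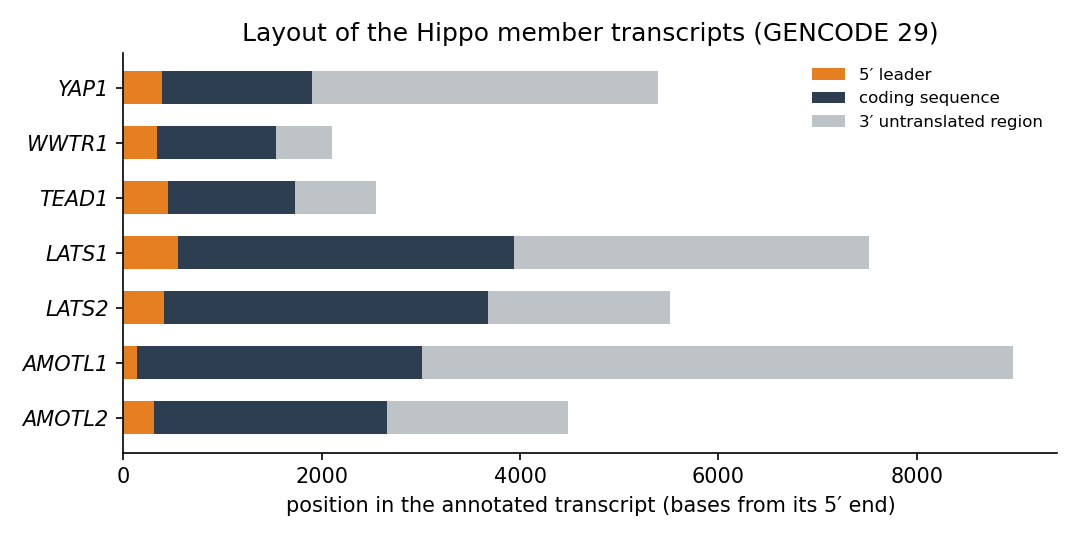
Length in bases of the 5′ leader, coding sequence (stop codon included) and 3′ untranslated region of the annotated transcript for each of the 7 members, drawn to scale. AMOTL1 combines the shortest leader (141 bases) with the longest 3′ untranslated region (5958 bases), and WWTR1 is the shortest transcript (2103 bases).

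Most of the members had a translation efficiency below that of the typical transcript, a difference that was not tested. On the log2 efficiency scale 0 is close to that transcript, and 6 of the 7 lay below 0 both in the knockdown and in the control. The medians were −0.46 in the knockdown per the authors' deposited table and a derived −0.58 in the control. This was not particular to the members. The lists of upstream genes, binding partners and targets examined below also had medians below 0. In the knockdown these were −0.43, −0.47 and −0.46, and in the control a derived −0.50, −0.70 and −0.17. LATS1 in the knockdown, at −0.0002, lay practically at 0. From high to low, the order in the knockdown was WWTR1, LATS1, YAP1, AMOTL1, AMOTL2, LATS2 and TEAD1. In the control it was WWTR1, LATS2, LATS1, AMOTL2, YAP1, AMOTL1 and TEAD1, so that WWTR1 and TEAD1 held the ends in both conditions and LATS2 took the second place in the control and the sixth in the knockdown. The distance from WWTR1 to TEAD1 was 2.14 in the knockdown and 2.04 in the control, a 4.40-fold and a 4.12-fold range. Whether neighbours in this order differ cannot be tested without values per library.

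YAP1, the gene of the coactivator YAP (chromosome 11, 102110461 to 102233423, plus strand, GRCh38), had a log2 efficiency of −0.45 in the knockdown, against a derived −0.63 in the control, from the authors' deposited table. This control value, like every control efficiency given here, was obtained by subtracting the log2 change of the authors' second method from the knockdown value. It thus rests on reading the change as knockdown over control. The log2 change was 0.18 with an adjusted p of 0.930 per the authors' deposited table. WWTR1, which encodes TAZ (chromosome 3, 149520245 to 149658101, minus strand), had log2 efficiencies of 0.64 in the knockdown and 0.61 in the control, the highest of the 7 in both, from the authors' deposited table. Its log2 change of 0.02 (adjusted p = 0.990) was the smallest in size among the 7 in the authors' deposited table. The 2 coactivators stood apart in level, with WWTR1 above YAP1 by 1.09 in the knockdown and by 1.24 in the control on the log2 efficiency scale; this difference between genes was not tested.

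TEAD1, the DNA-binding partner of YAP and TAZ (chromosome 11, 12674591 to 12938034, plus strand), had the lowest efficiency of the 7. Its log2 efficiency was −1.50 in the knockdown and −1.43 in the control, and 9.33% and 10.0% of all transcripts of the authors' deposited table lay below it in the 2 conditions. The log2 change was −0.07 with an adjusted p of 0.978 per the authors' deposited table.

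The other TEAD factors, which bind the same DNA element, gave the following values. TEAD2, which starts with ATG, had log2 efficiencies of 0.22 in the knockdown and 0.44 in the control, from the authors' deposited table. TEAD3 starts with ATA, and its log2 efficiencies were −0.24 in the knockdown and −1.07 in the control, from the authors' deposited table. For TEAD4, which starts with TTG, the authors' deposited table gave −0.69 in the knockdown and a derived −1.11 in the control. All 3 TEAD transcripts with a start codon other than ATG lay below 0 in both conditions, and TEAD2 lay above 0 in both. The 27 transcripts with such a start codon include these 3. Over the 27, the median log2 efficiency was −0.22 in the knockdown and −0.36 in the control, beside −0.03 and −0.04 over those with ATG. Whether start codon and efficiency are linked was not tested. The TEAD leaders differ as well, at 56 bases in TEAD2, 451 in TEAD1, 228 in TEAD3 and 190 in TEAD4. The sources used here do not say which part of each transcript the authors counted. Of the TEAD genes, TEAD3 had the largest log2 change, 0.82 (unadjusted p = 0.0366, adjusted p = 0.418, per the authors' deposited table), and 0 of the 4 were called.

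**Figure D2:**
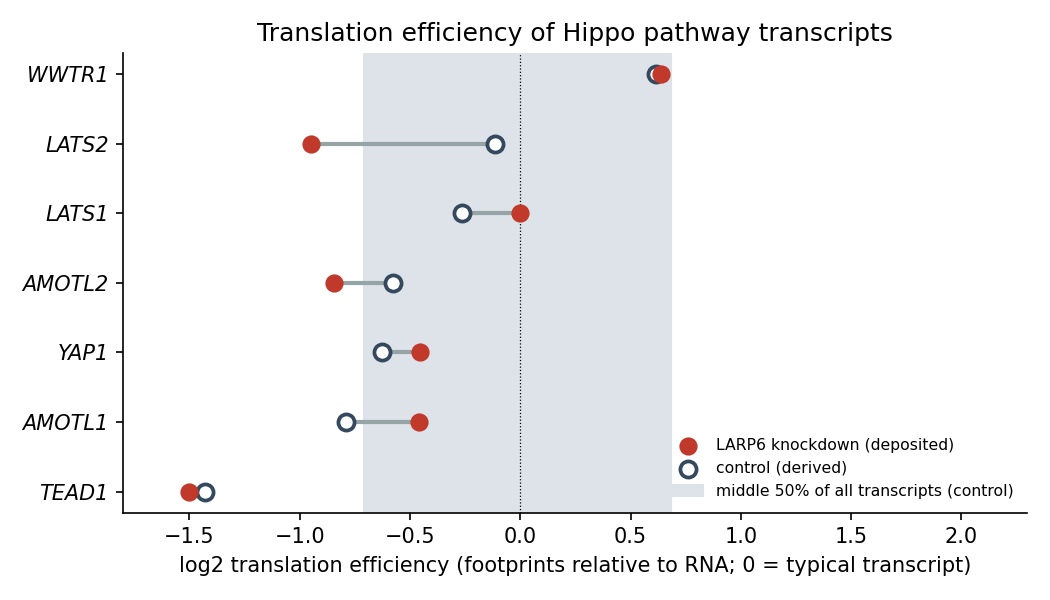
Log2 translation efficiency (horizontal axis) of each of the 7 members in LARP6 knockdown cells (filled points, as deposited) and control cells (open points, derived), 1 value per condition with no error available. The shaded band is the middle 50% of all transcripts in the control, from −0.71 to 0.68. WWTR1 lies highest at 0.64 and 0.61, TEAD1 lowest at −1.50 and −1.43, and LATS2 shows the widest gap between the conditions.

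LATS2, one of the 2 kinases that phosphorylate YAP and TAZ and itself a known YAP target (chromosome 13, 20973032 to 21061547, minus strand), had the largest change of the 7. Its log2 efficiency was −0.95 in the knockdown, against a derived −0.11 in the control, in the authors' deposited table. The log2 change was −0.84, a ratio of 0.560 knockdown over control, with an unadjusted p of 0.0144 and an adjusted p of 0.268 per the authors' deposited table. By unadjusted p it ranked 651 of 12109 transcripts in the authors' deposited table, and 84.8% of all transcripts had a smaller change in size. The first of the authors' 2 methods alone gave a p of 0.00236 for LATS2, which became 0.0580 when adjusted over all transcripts of the authors' deposited table, and the second gave 0.0144 and 0.239.

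LATS1, the paralogous kinase (chromosome 6, 149658153 to 149718256, minus strand), had log2 efficiencies of −0.0002 in the knockdown and −0.27 in the control, from the authors' deposited table. The log2 change was 0.27 with an adjusted p of 0.937 per the authors' deposited table. The 2 kinases lay close together in the control, where LATS2 was 0.15 above LATS1, and further apart in the knockdown, where LATS1 was 0.95 above LATS2 on the log2 efficiency scale of the authors' deposited table. The difference between their log2 changes, LATS2 minus LATS1, was −1.10, and with no value per library it could not be tested. Their coding sequences are of similar length, 3267 bases in LATS2 and 3393 in LATS1, with a GC content of 61.0% and 42.4%.

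The 716 protein-coding transcripts with at least 5 upstream ATGs, LATS2 among them, had a median log2 change of −0.04, beside 0.04 in the 5328 transcripts with none, in the authors' deposited table. Called in the authors' deposited table were 16 of the 716 (2.23%) and 129 of the 5328 (2.42%), shares near the 2.20% of all transcripts.

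AMOTL2, an angiomotin-like scaffold that binds YAP and is also a known YAP target (chromosome 3, 134355874 to 134374594, minus strand), had log2 efficiencies of −0.84 in the knockdown and −0.58 in the control, from the authors' deposited table. The log2 change was −0.27 with an adjusted p of 0.746 per the authors' deposited table. Its relative AMOTL1 (chromosome 11, 94768371 to 94876753, plus strand) had log2 efficiencies of −0.46 in the knockdown and −0.79 in the control, from the authors' deposited table. Here the log2 change was 0.33, the highest of the 7, with an adjusted p of 0.766 per the authors' deposited table. The unadjusted p-values in the authors' deposited table were 0.143 for AMOTL2 and 0.161 for AMOTL1. The third relative, AMOT, had no row under that name in the authors' deposited table.

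**Figure D3:**
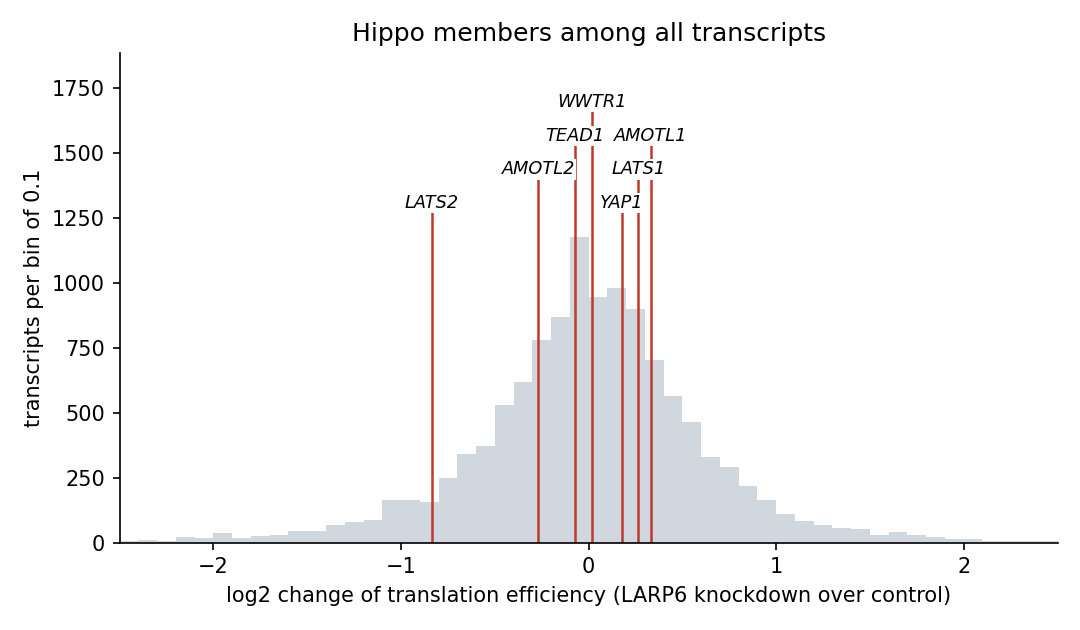
Number of transcripts (vertical axis) by log2 change of translation efficiency in bins of 0.1 (horizontal axis, LARP6 knockdown over control), with red lines at the values of the 7 members; 80 transcripts beyond ±2.5 are not drawn. Of the 7, 6 lie between −0.27 and 0.33, near the middle of the distribution, and LATS2 lies at −0.84.

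The rest of the pathway was examined through 3 gene lists. Of 67 measured genes that act upstream of YAP and TAZ, 0 rose and 1 fell per the authors' deposited table (1.49%), beside 1.07% higher and 1.12% lower over all transcripts; the list median was 0.01. The gene that fell was FAT1, a giant cadherin that acts on the Hippo cascade from the cell surface. Its log2 efficiency was −2.88 in the knockdown, against a derived −1.82 in the control, with a log2 change of −1.06 (adjusted p = 0.000182) per the authors' deposited table. Of the same 67 genes 7 (10.4%) had an unadjusted p under 0.05 in the authors' deposited table, a share near the 10.3% of all transcripts.

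The kinases and adaptors that stand directly above LATS1 and LATS2 were not called; they are named here for their role, with their values known. The kinases STK3 and STK4 had log2 changes of −0.55 and −0.38 (adjusted p = 0.866 and 0.902), and their adaptor SAV1 had 0.63 (adjusted p = 0.884), per the authors' deposited table. The LATS cofactors MOB1A and MOB1B had 0.09 and −0.24, and NF2, the membrane scaffold merlin, had 0.10 in the authors' deposited table, with adjusted p-values from 0.949 to 0.976.

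Among 32 measured binding partners of YAP, TAZ and TEAD, 1 rose and 0 fell per the authors' deposited table (3.13%), a share near the 2.20% of all transcripts, with a list median of 0.12. JUN, the AP-1 subunit that binds DNA together with TEAD factors at many enhancers, rose. It had log2 efficiencies of −0.20 in the knockdown and −1.22 in the control and a log2 change of 1.02 (adjusted p = 7.6e-06) per the authors' deposited table. An unadjusted p under 0.05 was reached by 8 of the 32 (25%), beside 10.3% of all transcripts, in the authors' deposited table. Of these, 7 were higher, TEAD3 and JUN included, and 1 was lower, beside 661 higher and 585 lower among all 12109 transcripts. This share was not tested.

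LATS2 and AMOTL2 are also transcriptional targets of YAP and TAZ, and the other genes described as such targets were counted with them. Of these 38 measured genes 2 rose and 7 fell (23.7%), beside 1.07% and 1.12% of all transcripts, and 27 of the 38 lay below 0, beside 47.3% of all transcripts, in the authors' deposited table. The list median was −0.24, beside 0.02 over all transcripts. The list was written with results of these data known, and it was not tested as a list. The share called in a list also depends on how well its transcripts are measured, and abundance is not in the table, so its part in this count was not tested. The changes of LATS2 (−0.84) and AMOTL2 (−0.27) lie on the same side of 0 as the list median. Both genes are among the 38 behind that median, so this is not independent of it. Neither gene is among the 9 called in the authors' deposited table.

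CCN1, CCN2 and ANKRD1 are the usual readouts of YAP activity, through their RNA level. Translation efficiency is taken relative to RNA, so the values below do not measure YAP activity. CCN2, a matricellular protein, had log2 efficiencies of 0.29 in the knockdown and 0.63 in the control, and its log2 change was −0.35 (adjusted p = 0.00349) per the authors' deposited table. ANKRD1, a nuclear repeat protein, had −0.33 in the knockdown and 0.32 in the control and fell by 0.64 (adjusted p = 0.0370) per the authors' deposited table. CCN1, named beside them after its value was seen, had a log2 change of −0.09 (adjusted p = 0.925) per the authors' deposited table. The others that fell per the authors' deposited table were the matrix protein CCDC80 by 0.67, the growth factor FGF2 by 0.71, the membrane protein CRIM1 by 0.61, the stress gene GADD45A by 0.76 and thrombospondin, THBS1, by 0.42 on the log2 scale. The 2 that rose were IGFBP3, which binds insulin-like growth factors, with a log2 change of 0.54 (adjusted p = 2.3e-08), and NT5E, which makes adenosine outside the cell, with 0.52 (adjusted p = 1.8e-05), per the authors' deposited table.

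**Figure D4:**
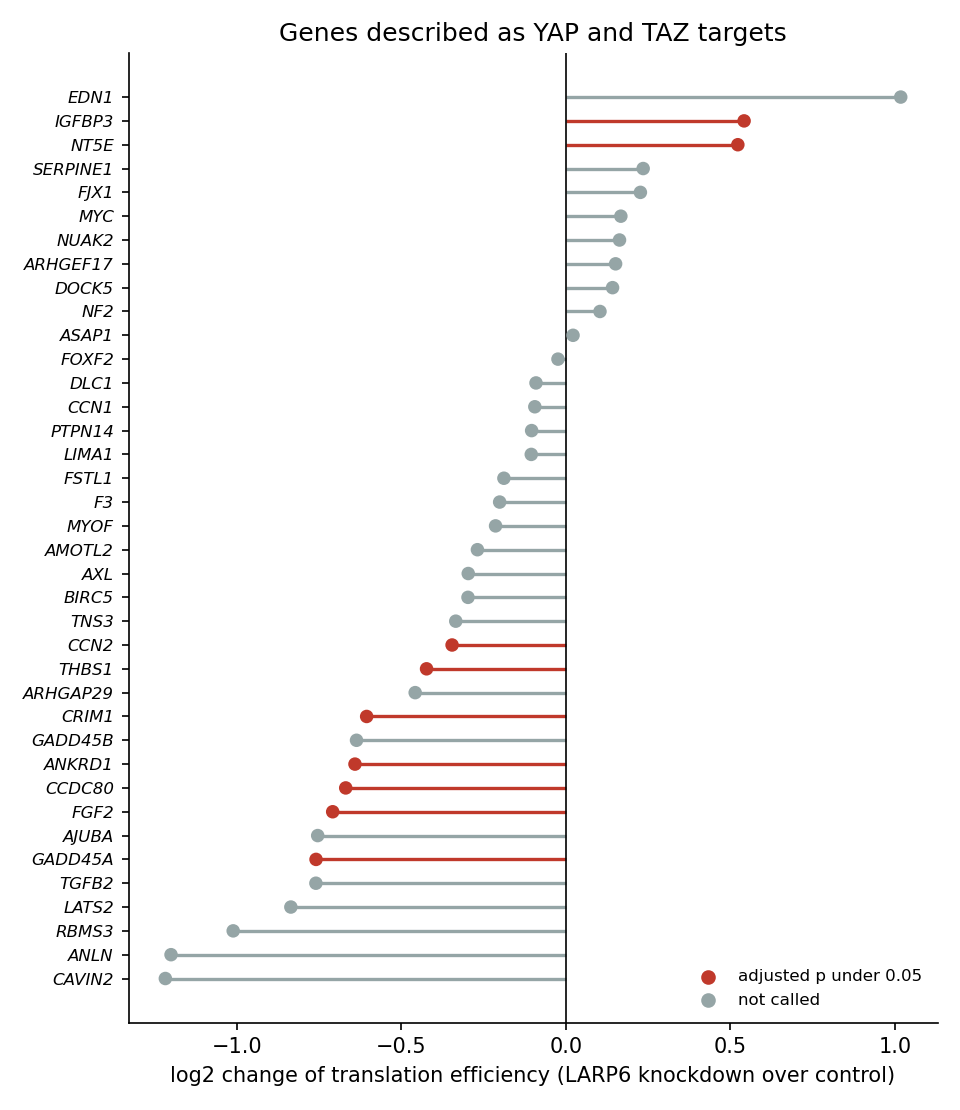
Log2 change of translation efficiency (horizontal axis, LARP6 knockdown over control) of the 38 measured genes described as YAP and TAZ targets, in order of their value; red marks an adjusted p under 0.05. Of the 9 red genes 7 lie below 0, and LATS2 (−0.84) and AMOTL2 (−0.27) are grey.

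**Figure D5:**
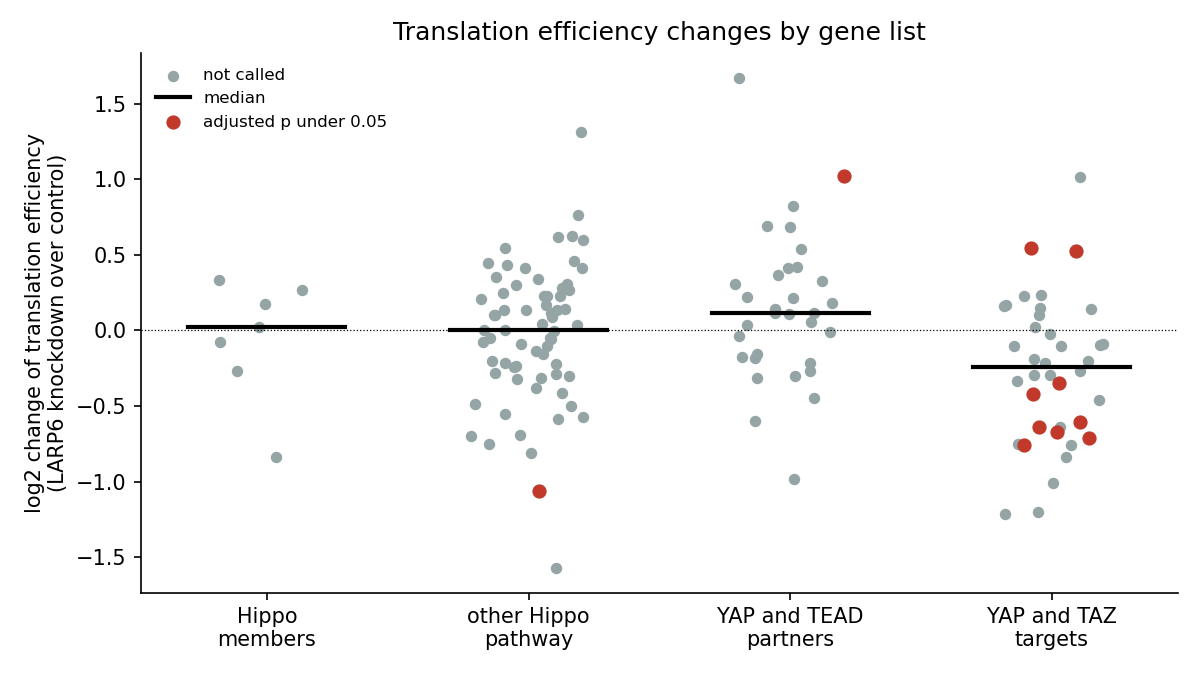
Log2 change of translation efficiency (vertical axis, LARP6 knockdown over control) of each measured gene in the 7 members and the 3 lists; points are genes spread sideways for legibility, bars are list medians and red marks an adjusted p under 0.05. The medians are 0.02, 0.01, 0.12 and −0.24 from left to right, and the YAP and TAZ targets hold 9 red points.

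The silenced gene itself, LARP6, had log2 efficiencies of 0.55 in the knockdown and 0.49 in the control (log2 change 0.07, adjusted p = 0.981) per the authors' deposited table. This ratio does not check the knockdown, because a loss of LARP6 RNA lowers its footprints as well. Of 10 stellate cell markers 7 were measured, and all 7 (ACTA2, COL1A1, COL1A2, COL3A1, DCN, LUM and PDGFRB) were called lower, beside 1.12% of all transcripts, with log2 changes from −1.11 in ACTA2 to −0.42 in COL1A2, per the authors' deposited table. These 7 markers are not in the list of YAP and TAZ targets. Most called targets also fell, and whether the falls are linked was not tested. DES, LRAT and RGS5 had no row under these names in the authors' deposited table. Of the markers of other liver cells, 2 of 8 for hepatocytes and 1 of 6 for endothelium were measured. So were 2 of 6 for Kupffer cells and leukocytes and 3 of 5 for biliary and epithelial cells. Of these 8, 0 were called in the authors' deposited table, beside 2.20% of all transcripts. A count of 0 among so few does not set them apart from other transcripts. Their log2 changes ran from −1.25 to 0.59 for hepatocytes and from −0.26 to 1.55 for biliary and epithelial cells. They were 0.58 for endothelium and 0.09 to 0.10 for Kupffer cells and leukocytes.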

How the data were processed

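RNA-seq and ribosome profiling were carried out in 2 libraries of each kind per condition. Among tools and builds, the submitters' processing notes list cutadapt and Bowtie, and hg38 and GRCh38. The authors deposited log2 changes of translation efficiency by 2 methods and a final one, and the knockdown's log2 efficiency. Per the file headers, each method's p-value stands beside a final and an adjusted one. The final p equals the larger of the 2 in all 12109 rows (relative tolerance 1e-09), and Benjamini-Hochberg adjustment recomputed from it lies within 6.3e-15 of the adjusted p. The sources used here do not say how efficiencies were compared or what was counted.

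The header does not name the direction of the change. It was read as knockdown over control: the derived control log2 efficiency then has an SD of 1.27 over transcripts, against 1.29 in the knockdown, and the opposite reading gives 1.61.

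Rows were matched to GENCODE release 29 (GRCh38) by the last 6 digits of the transcript identifier. Of the rows, 10657 matched by digits and symbol, 924 by digits alone and 528 not at all; the 7 members matched by both. Coding lengths include the stop codon, and percentages of protein-coding transcripts lie over 10486 with an annotated start.

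The members and gene lists were chosen with earlier results of these data known. The rule for names was all members and, of each other list, up to 8 genes past an adjusted p of 0.05, then up to 8 more with an unadjusted p under 0.05. The text departs from it after the values were seen: the genes with only an unadjusted p under 0.05 are mostly given as counts, to keep to the members, and CCN1, RUNX2, ANLN, EDN1 and the genes directly above the LATS kinases are named outside it. TEAD2 and TEAD4 also lie outside the rule and were given to complete the TEAD genes. Python 3.11.15 and pandas 2.3.3 were used, and the adjustment was tested on simulated data. The alternatives were other thresholds, each method alone, protein-coding transcripts only and centring on the median. One further planned gene list is not reported here. The planned count models were not run, since the table holds no counts.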

Additional observations from a re-analysis of the deposited data

How the results depend on the processing

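None of the 7 members was called under an adjusted p of 0.01 or 0.1, with either method alone or among protein-coding transcripts only. The absence of calls at 0.01 follows from that at 0.05. Their log2 changes kept their sign with either method and after the median over all transcripts was subtracted. The signs had little room to change. The 2 methods differed by at most 0.014 among the members, and the median of 0.015 was below the smallest member change in size, 0.019. Over all transcripts, the share called was 1.52% at an adjusted p of 0.01 and 2.81% at 0.1. It was 3.77% with method 1 alone, 2.82% with method 2 alone and 2.35% among protein-coding transcripts only. With method 1 alone, 2 of the 67 upstream genes were called in place of 1 (FAT1, and RASSF8 higher). The target list of 38 genes gave 6 calls at an adjusted p of 0.01, 10 with method 2 alone and 9 at the others of these settings. It gave 9 of 36 without the Hippo members and 9 of 33 without genes that are also in another list. None of the genes left out was called, so neither count could change. Both of these settings were chosen after seeing the data. No paired analysis was possible because libraries have no values of their own in the table. Leaving out replicates, other normalizations and filters on low counts were not run either, and without the depth it cannot be said which members were measured too thinly to be called.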

Other observations

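Among the targets of YAP and TAZ, 4 of 38 (10.5%) had a change of at least 2-fold in size per the authors' deposited table, a share near the 10.6% of all transcripts, and 0 of these 4 were called. These were RBMS3, an RNA-binding protein, with a log2 change of −1.01 (adjusted p = 0.169), CAVIN2, a caveolar protein, with −1.22 (adjusted p = 0.199), ANLN, a scaffold protein of the dividing cell, with a log2 change of −1.20 (adjusted p = 0.638), and EDN1, the vasoconstrictor endothelin, with 1.02 (adjusted p = 0.892) per the authors' deposited table. Among the binding partners, RUNX2, a transcription factor of bone formation, had the highest log2 change, 1.67 (adjusted p = 0.766), per the authors' deposited table. ANLN, EDN1 and RUNX2 were chosen after their values were seen.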
